A study of Homo sapiens with 15 samples.

Results

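Oxidative phosphorylation genes are described here in MCF-10A cells in which p63 isoforms were knocked down or overexpressed. They are the genes whose annotated symbol starts with NDUFA, NDUFB, NDUFC, NDUFS, NDUFV, UQCR, COX4, COX5, COX6, COX7, COX8 or ATP5, or is SDHA, SDHB, SDHC, SDHD or CYC1, and 74 of the 11963 genes on the arrays met this rule. They comprise 28 subunit genes of complex I, 5 NDUFAF assembly factors of complex I, 3 genes of complex II, 7 of complex III, 13 of complex IV and 16 of complex V. The other 2 are not protein-coding, namely the pseudogene ATP5MC2P1 and the antisense gene NDUFB2-AS1. Values are log2 expression levels from Affymetrix arrays, with 1 probe set per gene, the one of the highest mean.

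MCF-10A is an established, non-tumorigenic line of human mammary epithelial cells. Both arms of the study were infected with retrovirus or adenovirus for 48 h before RNA isolation, and the labels do not say which virus served which arm. The knockdown arm held 2 arrays each of a control with the shRNA vector, a hairpin directed at the DNA-binding domain, which every p63 isoform has (shDBD), and a hairpin directed at the isoforms with a transactivation domain (shTA). The overexpression arm held 3 arrays each of a vector control (OE vector), of ΔNp63α, an isoform that lacks the transactivation domain, and of TAp63γ, which has it. The labels call the arrays of a group biological replicates. No treatment other than the infection and no other allele is given in the labels. The p63 transcript was not analysed here, so directions rest on the labels. All levels and changes below are on the log2 scale, changes carry ± the standard error of the fit, and a gene was called at an adjusted p under 0.05 (limma, Benjamini-Hochberg over all 11963 genes).

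Oxidative phosphorylation takes place in the inner mitochondrial membrane. Complexes I and II pass electrons from NADH and succinate to ubiquinone, complex III hands them to cytochrome c and complex IV to oxygen, and complex V makes ATP from the resulting proton gradient. Most subunits are encoded in the nucleus, and their promoters often hold binding sites for nuclear respiratory factor NRF1 and for the ETS-family factor GABP. p63 is a p53-family transcription factor, and in stratified and basal epithelia its ΔN isoforms maintain the proliferating basal layer.

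The arrays showed the markers of the labelled cells. On the vector arrays the 8 measured basal mammary markers lay between the 91.5th and the 99.9th percentile of all genes, and the immune, endothelial and hormone-responsive luminal markers at or below the 50.7th. The 3 fibroblast markers lay at or below the 63rd. The 4 general epithelial markers lay between the 78.7th and the 99.1st. They include the luminal keratins KRT8 and KRT18, between the 84.8th and the 99.1st. The median residual SD of the oxidative phosphorylation genes was 0.0819 in the knockdown arm and 0.0964 in the overexpression arm. This SD is taken gene by gene and does not show shifts that many genes share on an array. Such shifts are given below for shTA and ΔNp63α.

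With shDBD, 34 of the 74 genes rose against the shRNA vector and 0 fell, and the median change was 0.27. Over all 11963 genes, 11.1% were called higher and 10.2% lower, with a median change of 0.0. The fitted change was above 0 for 66 of the 74, against 50.1% of all genes. Both shDBD arrays were above both vector arrays for 55 genes and below them for 3, against 31.8% and 29.9% of all genes. By array, the median of the 74 genes stood 0.29 and 0.26 above the vector mean on the shDBD arrays. The genes that rose were 13 of complex I, 1 assembly factor, 4 of complex III, 7 of complex IV and 9 of complex V.

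Promoter sequence is shown for 4 of the genes that rose, because it holds motifs by which this gene class is known. Each sequence is the 250 bases before the RefSeq start (GRCh38.p14), 5′ to 3′ on the gene's strand, with capitals marking matches to the NRF1, ETS and YY1 motifs. The COX6B1 stretch lies at chr19:35648073-35648322 (plus strand) and holds 1 ETS match; the ATP5PF stretch at chr21:25734905-25735154 (minus strand) holds 2 ETS matches and 1 YY1 match. UQCR11 at chr19:1605463-1605712 (minus strand) has 2 NRF1 and 2 ETS matches, and ATP5PO at chr21:33915805-33916054 (minus strand) has 1 NRF1 match.
COX6B1: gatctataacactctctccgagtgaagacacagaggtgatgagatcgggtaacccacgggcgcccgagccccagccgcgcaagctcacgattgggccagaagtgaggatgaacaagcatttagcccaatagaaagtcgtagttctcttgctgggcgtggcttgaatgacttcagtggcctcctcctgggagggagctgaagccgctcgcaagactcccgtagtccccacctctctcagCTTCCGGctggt
ATP5PF: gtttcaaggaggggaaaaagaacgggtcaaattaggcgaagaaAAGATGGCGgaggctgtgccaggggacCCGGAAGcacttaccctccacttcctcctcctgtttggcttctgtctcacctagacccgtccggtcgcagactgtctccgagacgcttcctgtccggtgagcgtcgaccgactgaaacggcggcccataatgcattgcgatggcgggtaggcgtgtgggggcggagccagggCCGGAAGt
UQCR11: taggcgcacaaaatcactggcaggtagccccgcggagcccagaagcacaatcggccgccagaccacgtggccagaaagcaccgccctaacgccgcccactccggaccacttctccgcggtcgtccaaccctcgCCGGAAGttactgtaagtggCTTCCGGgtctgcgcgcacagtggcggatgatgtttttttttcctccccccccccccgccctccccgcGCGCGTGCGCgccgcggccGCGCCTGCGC
ATP5PO: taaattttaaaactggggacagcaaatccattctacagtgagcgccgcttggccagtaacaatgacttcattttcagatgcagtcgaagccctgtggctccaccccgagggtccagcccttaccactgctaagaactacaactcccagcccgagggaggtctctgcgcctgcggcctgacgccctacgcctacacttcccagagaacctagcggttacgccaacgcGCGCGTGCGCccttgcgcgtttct

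Over windows of 300 bases (250 before to 50 after the start, both strands searched), 64 of the 74 genes had a RefSeq promoter. The NRF1 motif, GCGCA and GCGC separated by 1 base, was in 14 of the 64 (21.9%), in 9.01% of the 9562 tested genes with a promoter and in 6.05% of all 27305 promoters. The ETS motif CCGGAAG was in 18 (28.1%), against 15% and 10.6%, and the YY1 motif AAGATGGCG in 8 (12.5%), against 3.19% and 1.81%. No NRF1 or YY1 match overlapped an ETS match in these 64 promoters. Match centres lay close to the start, at a median of 43 bases before it for NRF1 and 39 bases before it for ETS. The p53-family half-site was in 3 of the 64 (4.69%), in 5.78% of tested genes and in 6.63% of all promoters. Of the 18 genes with an ETS match 13 rose with shDBD, at a median change of 0.36, and of the 46 without one 17 rose, at a median of 0.2. For NRF1 the counts were 4 of 14 with a match and 26 of 50 without. The 18 genes with an ETS match gave 1 rise and 1 fall with ΔNp63α, and 6 and 2 with TAp63γ. The 46 without one gave 7 and 10, and 11 and 11. Of all genes 11.1% were called higher with shDBD, but calls were not counted among all genes with a match. Whether an ETS match goes with a rise in other genes is therefore not shown. These counts are descriptions and carry no test.

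Complex I held the largest change with shDBD. NDUFA2, an accessory subunit of the NADH-oxidising module, had levels of 12.18 and 12.14 on the shDBD arrays against 11.44 and 11.39 on the vector arrays. Both shDBD arrays stood well above both controls, and the change was 0.74 ± 0.11, or 1.67-fold (adjusted p = 0.00011). A second, dimmer NDUFA2 probe set with a mean level of 5.91 gave 0.03 and was not called. NDUFB5 in the membrane arm rose from 11.14 and 11.29 to 11.86 and 11.79, a change of 0.61 ± 0.11 (adjusted p = 0.000937). NDUFB11 rose by 0.58 ± 0.15, and NDUFA10 by 0.58 ± 0.17. NDUFV1, the subunit that binds NADH and flavin, rose from 11.17 and 11.24 to 11.7 and 11.64, and the arrays did not overlap. Its partner NDUFS1, which carries iron-sulfur clusters, rose by 0.45 ± 0.088. NDUFS7, which holds the last iron-sulfur cluster before ubiquinone, rose by 0.43 ± 0.093. NDUFA7, NDUFB7, NDUFB8, NDUFA13, NDUFA1 and NDUFAB1 also rose, by between 0.27 and 0.51. One of the other NDUFB8 probe sets had a change of -0.36 without a call, and with the mean of its probe sets NDUFB8 was not called (adjusted p = 0.439). NDUFV2, NDUFS4, NDUFS6 and NDUFA5 were not called, with changes between -0.11 and -0.02, and NDUFB3, NDUFA8 and NDUFC1 were near 0. Among the assembly factors NDUFAF1 rose by 0.35 ± 0.11, and the other 4 lay between -0.09 and 0.16.

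Complex II gave no call with shDBD. SDHD, a membrane anchor of the complex, had levels of 10.52 and 10.46 against 9.64 and 10.16 with the vector, a change of 0.59 ± 0.2 (adjusted p = 0.0532). Its vector arrays were far apart. SDHC, the other anchor, had a change of 0.49 ± 0.19 and the flavoprotein SDHA one of 0.3 ± 0.19. All 3 had both shDBD arrays above both controls.

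In complex III, 4 of 7 genes rose with shDBD. UQCR11, a small accessory subunit, had levels of 12.39 and 12.48 against 11.85 and 11.93, a change of 0.55 ± 0.12 (adjusted p = 0.00397). UQCRB, which lies at the ubiquinone site, rose by 0.49 ± 0.071 with no overlap between arrays, and its 2 other probe sets were also called, at 0.61 and 0.48. UQCRC2, a core protein, rose by 0.42 ± 0.11, and UQCRQ by 0.31 ± 0.084. The other core protein, UQCRC1, did not move with it. Its levels were 12.3 and 12.31 against 12.42 and 12.4, a change of -0.11 ± 0.058 without a call. Cytochrome c1, encoded by CYC1, had a change of 0.0 ± 0.13, with arrays that overlapped.

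Complex IV rose in 7 of 13 genes. COX7C had levels of 13.2 and 13.17 against 12.7 and 12.7, a change of 0.48 ± 0.074 (adjusted p = 0.000189), and its 2 other probe sets rose as well. COX6B1, which faces the intermembrane space, rose from 11.67 and 11.64 to 12.16 and 12.03, or by 0.44 ± 0.082. In both genes the shDBD arrays were separate from the controls. COX5B rose by 0.42 ± 0.1, COX6A1 by 0.36 ± 0.065 and COX7B by 0.32 ± 0.087. COX4I1 and COX6C rose by 0.25 ± 0.083 and 0.27 ± 0.087. These last 2 calls were the weakest of the complex: with cyclic loess within the arm the adjusted p was 0.0786 for COX4I1 and 0.0916 for COX6C. COX7A2 (0.28 ± 0.1) and COX7A2L (0.27 ± 0.12), the latter a protein that joins complexes III and IV, were not called. COX5A and COX8A had changes of 0.08 and 0.04. The muscle isoforms COX6A2 and COX7A1 stayed between -0.04 and 0.06 in all 4 comparisons with a vector and were called in none. Their mean levels were low, at 6.02 and 5.63, so this lack of a call says little.

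In complex V all 16 genes had a fitted change above 0 with shDBD, and 9 were called. Each of the 4 peripheral stalk genes, which hold the catalytic head still, rose. ATP5PF had levels of 12.4 and 12.33 against 11.78 and 11.98, a change of 0.49 ± 0.074 (adjusted p = 0.000184). ATP5PO rose from 12.45 and 12.52 to 12.81 and 12.84, a change of 0.34 ± 0.072. ATP5PD rose by 0.34 ± 0.091 and ATP5PB by 0.21 ± 0.07. The shDBD arrays were higher than the controls for all 4, though the ATP5PB call did not hold with cyclic loess (adjusted p = 0.107). Of the 3 central stalk genes, which form the shaft of the rotor, ATP5F1D rose by 0.48 ± 0.095 and ATP5F1E by 0.45 ± 0.076, and ATP5F1C, the main shaft subunit, was not called at 0.16 ± 0.078. A second ATP5F1D probe set gave 0.04, and with the mean of its probe sets ATP5F1D was not called (adjusted p = 0.0552). The membrane subunits ATP5ME, ATP5MJ and ATP5MG rose by 0.41, 0.4 and 0.35. The catalytic head subunits ATP5F1A and ATP5F1B were not called, at 0.17 ± 0.099 and 0.01 ± 0.14. Neither were the genes of the c ring, the membrane part of the rotor, ATP5MC1, ATP5MC2 and ATP5MC3, at 0.11, 0.27 and 0.07, nor the ATPase inhibitor ATP5IF1, at 0.1 ± 0.1. The grouping by stalks, head and ring was made after the values were seen.

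**Figure D1:**
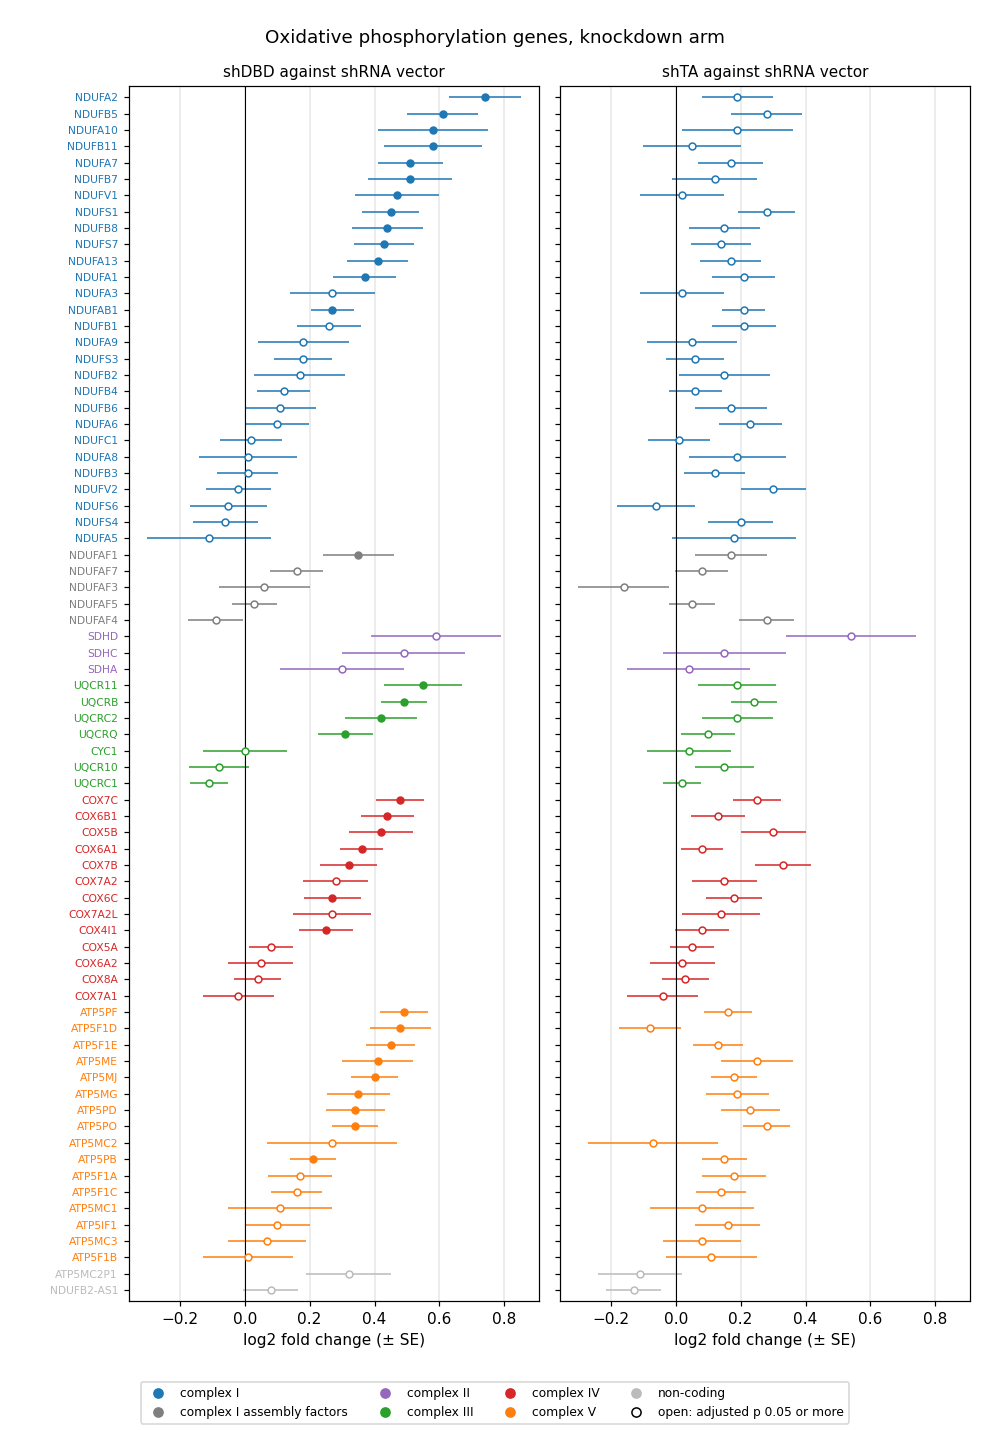
Fitted log2 fold change of each of the 74 genes with shDBD (left) and shTA (right) against the shRNA vector, coloured by complex. Points are fitted changes, bars ± 1 standard error, and filled points have an adjusted p under 0.05: 34 are filled on the left, all to the right of 0, and 0 on the right.

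With 2 arrays a group these counts moved with single arrays. Without shRNA vector replicate 1 or 2 the count of genes that rose with shDBD was 17 or 21, and without shDBD replicate 1 or 2 it was 18 or 20, with 0 falling each time. Of the 34 calls, 15 held in each of the 15 fits that left out 1 array, among them NDUFA2, NDUFB5, NDUFS1, UQCR11, UQCRB, COX6B1, COX7C, ATP5PF and ATP5PO. The 3′ minus 5′ difference of control probe sets, a measure of RNA integrity, differed between the groups for actin. It was -0.0868 ± 0.00982 (SD, n = 2) with the vector, 0.0668 ± 0.0262 with shDBD and 0.102 ± 0.14 with shTA. For the GAPDH control the differences were smaller, at 0.00674 ± 0.00094, 0.0342 ± 0.0158 and 0.0369 ± 0.0414 in the same order. The part of RNA integrity in the result was not tested. In these bulk samples a change in the mix of cells and a change in RNA per cell cannot be told apart.

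With shTA, 0 of the 74 genes were called, against 2.29% of all genes. The median change was 0.15, against -0.01 over all genes, and 67 of the 74 lay above 0, against 47.1% of all genes. Both hairpins are set against the same vector arrays, so the likeness of this shift to that with shDBD is not a result. At an unadjusted p under 0.05, limma gave 17 genes, all higher, against 13.2% of all genes in either direction. Both shTA arrays were above both controls for 40 genes and below for 5, against 24.2% and 26.5% of all genes. The arrays differed from each other: the median of the 74 genes stood 0.06 above the vector mean on replicate 1 and 0.21 above it on replicate 2.

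Genes differed in how far the shTA replicates lay apart. COX7B had levels of 12.19 and 12.51 against 12 and 12.03 with the vector, a change of 0.33 ± 0.087 (adjusted p = 0.0637). ATP5PO had 12.68 and 12.84 against 12.45 and 12.52, or 0.28 ± 0.072 (adjusted p = 0.0593). In both genes each shTA array was above both controls. SDHD had levels of 10.44 and 10.44, nearly equal between replicates, and a change of 0.54 ± 0.2 with a 95% confidence interval from 0.1 to 0.97 and an adjusted p of 0.23. UQCRB was as even, with levels of 11.73 and 11.71 against 11.44 and 11.52, a change of 0.24 ± 0.071. UQCRB, NDUFV2 (0.3 ± 0.1) and NDUFAF4 (0.28 ± 0.085) had the largest changes of complex III, complex I and the assembly factors. In NDUFB2 the replicates lay far apart, at 12.15 and 12.62 against 12.25 and 12.22, 1 below and 1 above the controls. By class the medians were 0.17 in complex I, 0.15 in complexes II, III and V and 0.13 in complex IV. Without shTA replicate 1, 3 genes were called higher, namely COX5B, COX7B and COX7C, and without ΔNp63α replicate 3, which bears only on the estimate of the spread, 2 genes were. With each arm fitted alone 8 genes were called, all higher.

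Setting the hairpins against each other, 15 genes were higher with shDBD than with shTA and 2 were lower, with a median difference of 0.13. Over all genes 9.14% were higher and 9.23% lower. Of the 15, 14 also rose with shDBD against the vector, which shares the shDBD arrays, and the other is the pseudogene ATP5MC2P1. ATP5F1D differed most, at 0.56 ± 0.095 (adjusted p = 0.000581): its shTA levels of 11.52 and 11.5 were below the vector's 11.56 and 11.63. NDUFA2 differed by 0.55 ± 0.11, NDUFB11 by 0.52 ± 0.15 and NDUFV1 by 0.45 ± 0.13. COX6B1 (0.31 ± 0.082) and ATP5PF (0.33 ± 0.074) were also higher with shDBD. NDUFAF4, an assembly factor, was lower with shDBD by 0.37, with levels of 9.38 and 9.35 against 9.66 and 9.81 with shTA. NDUFV2 was lower as well, with a difference of -0.32 ± 0.1. For COX7B the difference was -0.01 ± 0.087 with a 95% interval from -0.2 to 0.17, and for ATP5PO it was 0.07 ± 0.072, from -0.09 to 0.22. Only ATP5F1D and NDUFA2 kept this call in all 15 fits that left out 1 array. The second probe set of each gene was not called in this comparison. It gave 0.16 for ATP5F1D, at a mean level of 9.82, and 0.1 for NDUFA2, at a mean level of 5.91. Without shDBD replicate 1, shDBD replicate 2 or shTA replicate 1 the total was 5, 6 or 5 calls.

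In the overexpression arm the genes split in direction, and with the deposited values their shares were near those of all genes. With ΔNp63α 8 of the 74 rose and 14 fell against the OE vector, at a median change of -0.01, against 12.3% and 16.6% of all genes. With TAp63γ 19 rose and 16 fell, at a median of 0.03, against 20.5% and 22.8% of all genes. Cyclic loess within the arm turned these splits to 12 and 12 with ΔNp63α and to 26 and 9 with TAp63γ. The medians took either sign, at -0.01 in both comparisons under quantile normalization and 0.05 and 0.07 under cyclic loess. Among genes named below, cyclic loess ended the TAp63γ calls of NDUFB5 (adjusted p = 0.0949), NDUFV2 (0.0618), COX6C (0.0971) and ATP5IF1 (0.0844), and quantile normalization those of NDUFB1 (0.0609) and ATP5ME (0.0774). Both comparisons use the same 3 vector arrays, so they are given side by side and their likeness is not a result. All arrays of a treatment were above all vector arrays for 10 genes with ΔNp63α and 25 with TAp63γ, and below for 18 and 19. In all genes those shares were 16.3% and 23.6% above, and 20.2% and 26.3% below.

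**Figure D2:**
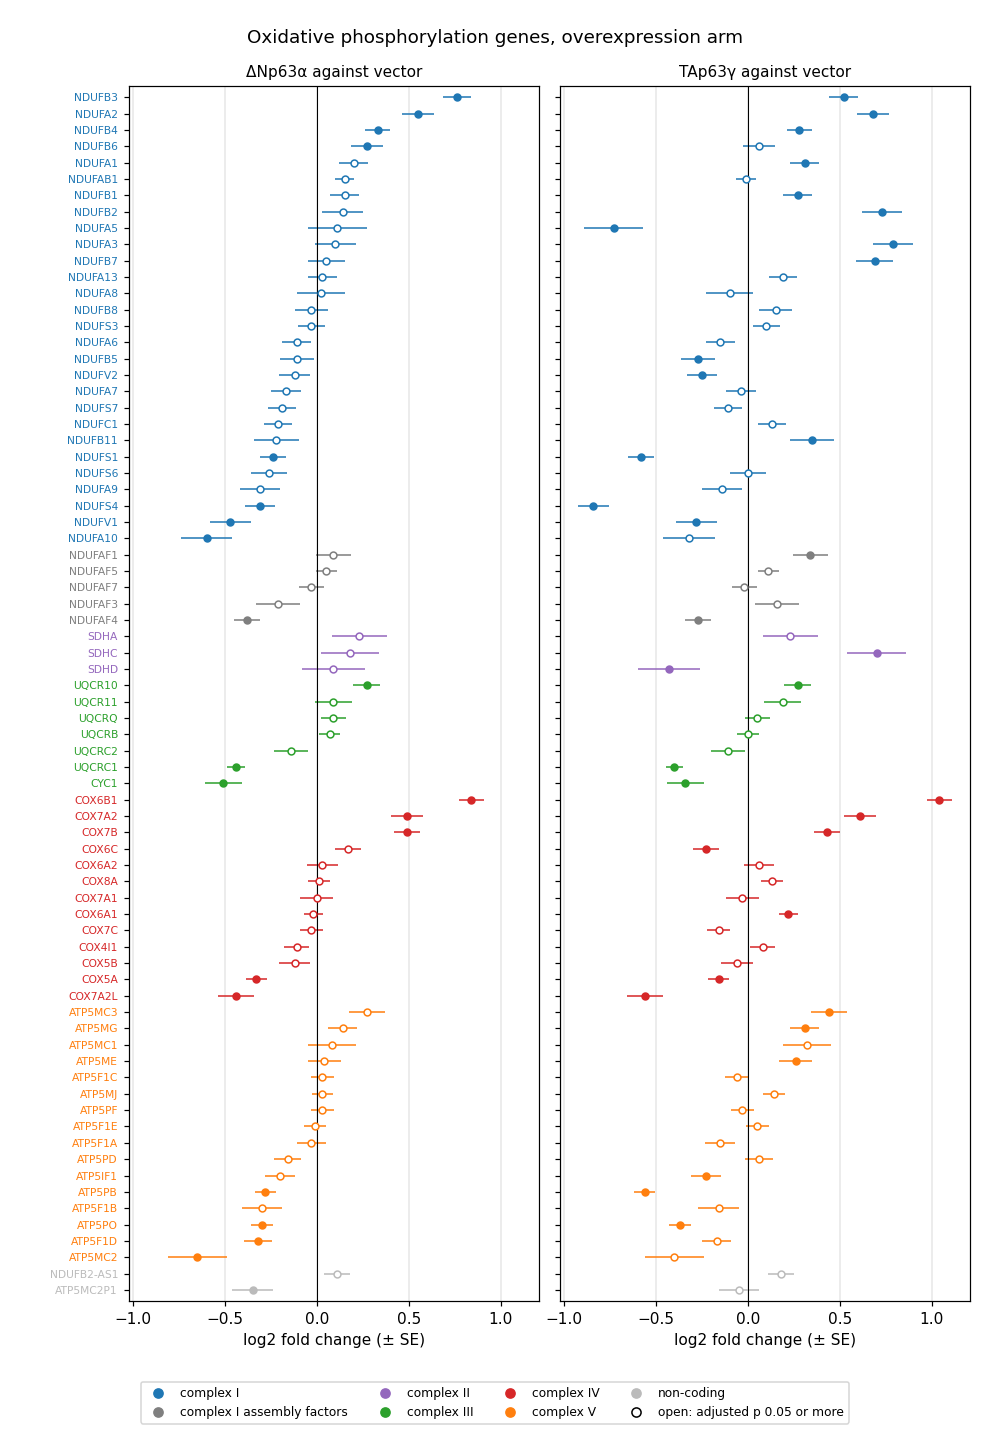
Fitted log2 fold change of each of the 74 genes with ΔNp63α (left) and TAp63γ (right) against the overexpression vector, coloured by complex. Points are fitted changes, bars ± 1 standard error, and filled points have an adjusted p under 0.05: 8 lie above 0 and 14 below on the left, 19 above and 16 below on the right.

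In complex IV 3 genes rose and 2 fell with ΔNp63α, and 4 rose and 3 fell with TAp63γ (5 and 1 under cyclic loess, 4 and 4 under quantile normalization). COX6B1 had the largest rise of the 74 genes with either isoform. Its levels were 11.12, 11.02 and 11.17 with the vector, 11.99, 11.85 and 12 with ΔNp63α, and 12.11, 12.18 and 12.14 with TAp63γ. No array of either isoform came near the controls, and the changes were 0.84 ± 0.067 (adjusted p = 1.53e-07) and 1.04 ± 0.067 (adjusted p = 5.5e-09), the latter 2.06-fold. COX6B1 had also risen with shDBD, by 0.44. In the same complex COX7A2 rose by 0.49 ± 0.086 with ΔNp63α and 0.61 ± 0.086 with TAp63γ, and COX7B by 0.49 ± 0.071 and 0.43 ± 0.071. COX6A1 rose with TAp63γ by 0.22 ± 0.053 and had a change of -0.02 ± 0.053 with ΔNp63α. COX7A2L fell in both comparisons. Its levels were 11.56, 11.33 and 11.54 with the vector, 11, 10.91 and 11.19 with ΔNp63α and 10.79, 11.05 and 10.9 with TAp63γ. Every array of either isoform was below every control, and the changes were -0.44 ± 0.097 and -0.56 ± 0.097. COX5A fell by 0.33 with ΔNp63α (SE 0.056) and by 0.16 with TAp63γ, the second without a call under cyclic loess (adjusted p = 0.177). COX6C fell by 0.23 with TAp63γ and had a change of 0.17 ± 0.071 with ΔNp63α. COX4I1, COX5B and COX8A were called with neither isoform.

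Complex I moved both ways, with 4 genes up and 4 down with ΔNp63α and 9 up and 6 down with TAp63γ. Under cyclic loess these splits were 6 and 2, and 11 and 3, and under quantile normalization 5 and 3, and 8 and 6. NDUFB3, a membrane-arm subunit, had levels of 10.57, 10.45 and 10.55 with the vector, 11.34, 11.2 and 11.31 with ΔNp63α and 10.92, 11.16 and 11.06 with TAp63γ. Every treated array was above the controls, with changes of 0.76 ± 0.077 and 0.52 ± 0.077. NDUFA2 rose by 0.55 ± 0.088 and 0.68 ± 0.088, and NDUFB4 by 0.33 ± 0.067 and 0.28 ± 0.067. NDUFB6 rose with ΔNp63α, by 0.27 ± 0.087. With TAp63γ rises were also called for NDUFA3 (0.79 ± 0.11), NDUFB2 (0.73 ± 0.11), NDUFB7 (0.69 ± 0.1), NDUFB11, NDUFA1 and NDUFB1. Of the 9 NDUFB genes, 6 rose and 1 fell with TAp63γ, and 3 rose and 0 fell with ΔNp63α; NDUFB5 was the one that fell. Of the 11 NDUFA genes, 3 rose and 1 fell with TAp63γ, and 1 rose and 1 fell with ΔNp63α. Of all genes 20.5% were called higher and 22.8% lower with TAp63γ, and 12.3% and 16.6% with ΔNp63α. The NDUFB split with TAp63γ was 5 and 1 under quantile normalization and 6 and 0 under cyclic loess, and these families were set apart after the values were seen.

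Genes of the NADH-oxidising module were among the falls of complex I. NDUFS4, an accessory subunit of that module, had levels of 11.16, 11.11 and 11.24 with the vector, 10.88, 10.86 and 10.85 with ΔNp63α and 10.17, 10.48 and 10.35 with TAp63γ. The 3 groups did not overlap, and the changes were -0.31 ± 0.082 (adjusted p = 0.00965; 0.0537 under cyclic loess) and -0.84 ± 0.082 (adjusted p = 5.5e-07). NDUFS1 fell with both isoforms, with changes of -0.24 ± 0.071 and -0.58 ± 0.071, the first not called under cyclic loess (adjusted p = 0.134) or quantile normalization (0.0547). NDUFV1 had levels of 11.44, 11.8 and 11.62 with the vector and 11.28, 11.28 and 10.87 with ΔNp63α, a change of -0.47 ± 0.11. With TAp63γ its change was -0.28 ± 0.11, called at an adjusted p of 0.0435 that became 0.0827 under cyclic loess. NDUFV2 fell with TAp63γ, by 0.25. NDUFA2 belongs to the same module and rose. NDUFA6 and NDUFA7, also assigned to this module, were called with neither isoform and were not counted with it here. The 6 genes counted were NDUFV1, NDUFV2, NDUFS1, NDUFS4, NDUFS6 and NDUFA2. Of these 1 rose and 3 fell with ΔNp63α, and 1 rose and 4 fell with TAp63γ. Under cyclic loess 1 rose and 1 fell with ΔNp63α, and 1 rose and 2 fell with TAp63γ, and of all genes 16.6% and 22.8% were called lower. This module was picked out after the values were seen. NDUFA10 fell with ΔNp63α, by 0.6 (SE 0.14), and had a change of -0.32 ± 0.14 with TAp63γ (adjusted p = 0.0676). NDUFA5 fell with TAp63γ, with levels of 9.52, 9.86 and 10.15 against 10.76, 10.46 and 10.5, while its ΔNp63α levels of 10.34, 10.83 and 10.88 overlapped the controls. Of the assembly factors NDUFAF4 fell with both, by 0.38 and 0.27, and NDUFAF1 rose with TAp63γ, by 0.34.

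In complex III 1 gene rose and 2 fell with each isoform. The core protein gene UQCRC1 had levels of 12.38, 12.38 and 12.42 with the vector, 11.95, 11.96 and 11.95 with ΔNp63α and 12, 11.98 and 12.01 with TAp63γ. Its replicates were nearly equal, and it fell by 0.44 and 0.4 (SE 0.047 each; adjusted p = 3.39e-06 and 4.24e-06). CYC1 had levels of 12.58, 12.85 and 12.69 with the vector, 12.39, 12.27 and 11.92 with ΔNp63α and 12.45, 12.26 and 12.39 with TAp63γ, and fell by 0.51 (SE 0.1) and 0.34 (SE 0.1). The treated arrays of CYC1 were all below the controls but differed more among themselves. UQCR10, a small accessory subunit, rose by 0.27 ± 0.075 in each comparison. UQCR11, UQCRB, UQCRC2 and UQCRQ, the genes that rose with shDBD, were called with neither isoform and had changes between -0.14 and 0.19.

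In complex II 1 gene rose and 1 fell with TAp63γ, and none were called with ΔNp63α. SDHC had levels of 9.84, 10 and 10.23 on the vector arrays, lowest first, and 10.8, 10.61 and 10.77 with TAp63γ, a rise of 0.7 ± 0.16 (adjusted p = 0.00164) with no overlap. Its 3 other probe sets also rose, by 0.66 to 0.9. SDHD fell by 0.43 (SE 0.17) with arrays that overlapped, and this call was lost with cyclic loess (adjusted p = 0.102). SDHA had a change of 0.23 ± 0.15 with each isoform and was called in none of the 4 comparisons with a vector. With ΔNp63α, SDHC had levels of 10.44, 10.43 and 9.73, a change of 0.18 ± 0.16. Without ΔNp63α replicate 3 both SDHA (0.47) and SDHC (0.42) were called higher.

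In complex V 4 genes fell and 0 rose with ΔNp63α, and 3 rose and 3 fell with TAp63γ; under cyclic loess the splits were 1 and 4, and 5 and 2, and under quantile normalization 1 and 5, and 3 and 5. The peripheral stalk genes ATP5PB and ATP5PO fell with both. ATP5PO had levels of 12.56, 12.64 and 12.64 with the vector, 12.39, 12.31 and 12.24 with ΔNp63α and 12.25, 12.2 and 12.28 with TAp63γ. All treated arrays were below the controls, with changes of -0.3 ± 0.059 (adjusted p = 0.0012) and -0.37 ± 0.059 (adjusted p = 9.2e-05). ATP5PB fell by 0.28 and 0.56 (SE 0.057 each). The other stalk genes, ATP5PD and ATP5PF, were not called. ATP5F1D fell with ΔNp63α, by 0.32 (SE 0.078). The c-ring genes went different ways: ATP5MC2 fell with ΔNp63α, by 0.65 (SE 0.16; -0.38 without its replicate 3), and ATP5MC3 rose with TAp63γ, by 0.44 ± 0.098. ATP5MG and ATP5ME rose with TAp63γ, by 0.31 ± 0.079 and 0.26 ± 0.09, and ATP5IF1 fell by 0.23. Other ATP5MG probe sets gave 0.33 and 0.27, both called, and -0.08 without a call, the last at a mean level of 9.53. ATP5F1A, ATP5F1B, ATP5F1C and ATP5MC1 were called in none of the 4 comparisons.

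**Figure D3:**
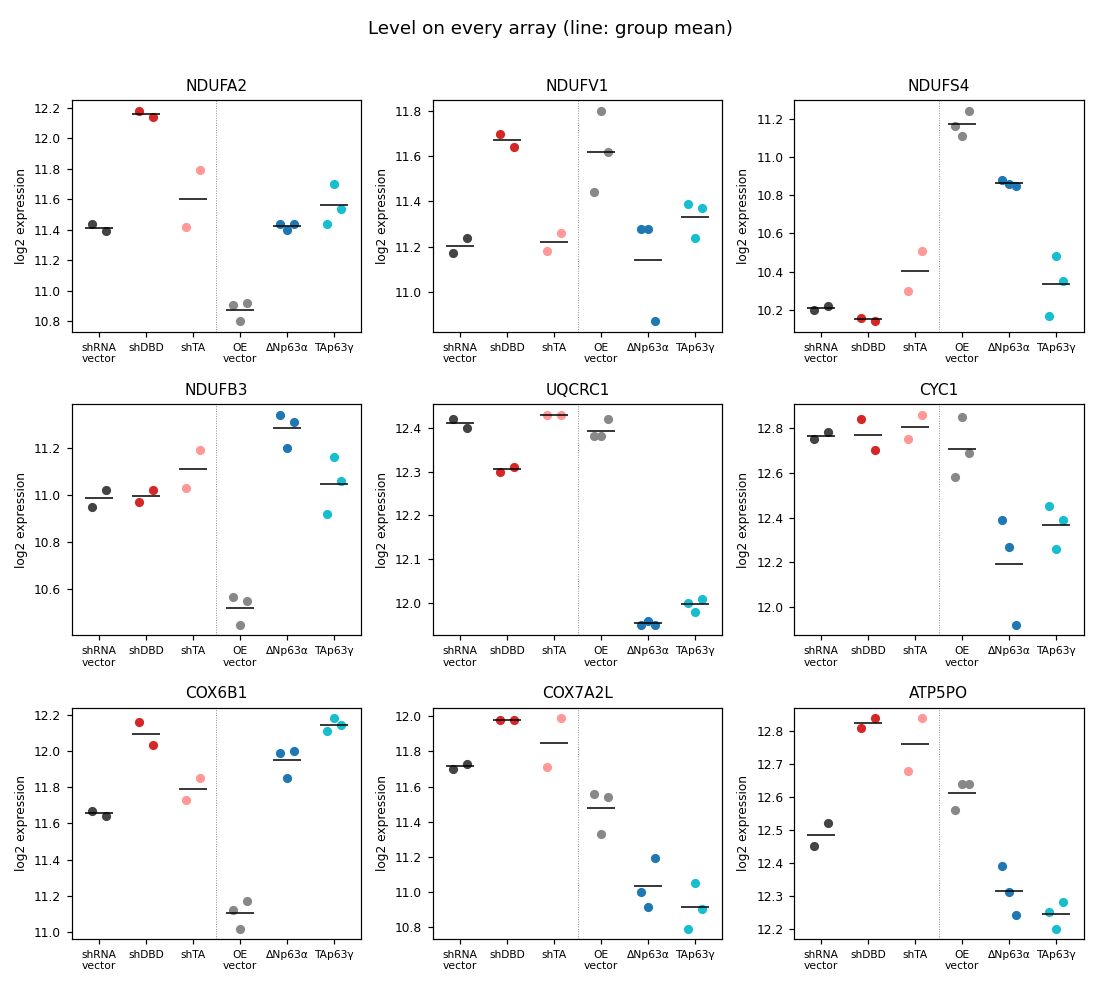
Log2 level of 9 genes on each of the 15 arrays, with a line at each group mean; the dotted line separates the knockdown from the overexpression arm. COX6B1 and NDUFA2 were above their vector with shDBD and both isoforms, ATP5PO was above it with shDBD and below it with both isoforms, and NDUFS4 fell in the order vector, ΔNp63α, TAp63γ.

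One array of the ΔNp63α group stood lower than its replicates for many of these genes. Replicate 3 was the lowest of the 3 for 43 of the 74 genes (58.1%), against 38.7% of all genes, and its median deviation from the vector mean was -0.1 against 0.01 and -0.02 for the others. For NDUFV1 it read 10.87 beside 11.28 and 11.28, for ATP5MC2 10.9 beside 11.71 and 11.66, and for NDUFA10 10.12 beside 10.63 and 10.71. Without it 11 genes rose and 14 fell with ΔNp63α. The calls of these 3 genes held in each of the 15 fits that left out 1 array, but without replicate 3 the change of ATP5MC2 was -0.38 in place of -0.65. Without it SDHA (0.47; adjusted p = 0.00228), SDHC (0.42; adjusted p = 0.00799), ATP5MC3 (0.41), NDUFA1 (0.26) and NDUFS7 (-0.22) were also called, and NDUFB6 and ATP5MC2P1 were no longer called.

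The isoforms were also compared directly. Higher with ΔNp63α than with TAp63γ were 8 genes and lower were 15, at a median difference of -0.1, against 19.2% and 20.6% of all genes. With quantile normalization the split was 10 and 10. NDUFA5 (0.84 ± 0.16), NDUFS4 (0.53 ± 0.082), SDHD, COX6C (0.39 ± 0.071), NDUFS1 (0.34 ± 0.071), ATP5PB (0.28 ± 0.057), NDUFB3 and NDUFAB1 were the 8 that were higher. Among the 15 that were lower, the largest differences were in NDUFA3 (-0.69 ± 0.11), NDUFB7 (-0.63 ± 0.1), NDUFB2 (-0.59 ± 0.11) and NDUFB11 (-0.57 ± 0.12), all of complex I. For NDUFA3 the TAp63γ levels of 11.59, 11.36 and 11.42 were all above the ΔNp63α levels of 11.02, 10.71 and 10.57. SDHC was lower by 0.52 with ΔNp63α, and COX6B1 differed by -0.2 ± 0.067, a call lost under quantile normalization (adjusted p = 0.105). The SDHD call was lost with the mean of its probe sets (adjusted p = 0.0778). No gene of complex III was called. For UQCRC1 the difference was -0.04 ± 0.047 with a 95% interval from -0.14 to 0.06, and for ATP5PO it was 0.07 ± 0.059, from -0.06 to 0.2. Of the 23 calls 11 held in all 15 fits that left out 1 array. Without TAp63γ replicate 2 or 3 the total was 15 or 13 calls.

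The knockdown and overexpression arms share no array, and gene by gene their calls met in either direction. Of the 34 genes that rose with shDBD, 3 rose with ΔNp63α (NDUFA2, COX6B1 and COX7B, out of 8 that did) and 6 fell (NDUFA10, NDUFS1, NDUFV1, ATP5F1D, ATP5PB and ATP5PO, out of 14), and 25 were not called. With TAp63γ 10 of the 34 rose, out of 19 that did, 6 fell, out of 16, and 18 were not called. Across the 4 comparisons with a vector 18 of the 74 genes were called in none, 28 in 1, 21 in 2, 7 in 3 and 0 in all 4. The 7 called in 3 were NDUFA2, NDUFS1, NDUFV1, COX6B1, COX7B, ATP5PB and ATP5PO. Comparisons within an arm share their vector arrays, so repeated calls there are not independent. The same tally was not made over all genes, so it does not show whether these numbers are particular to the 74. Levels were compared only within an arm.

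**Figure D4:**
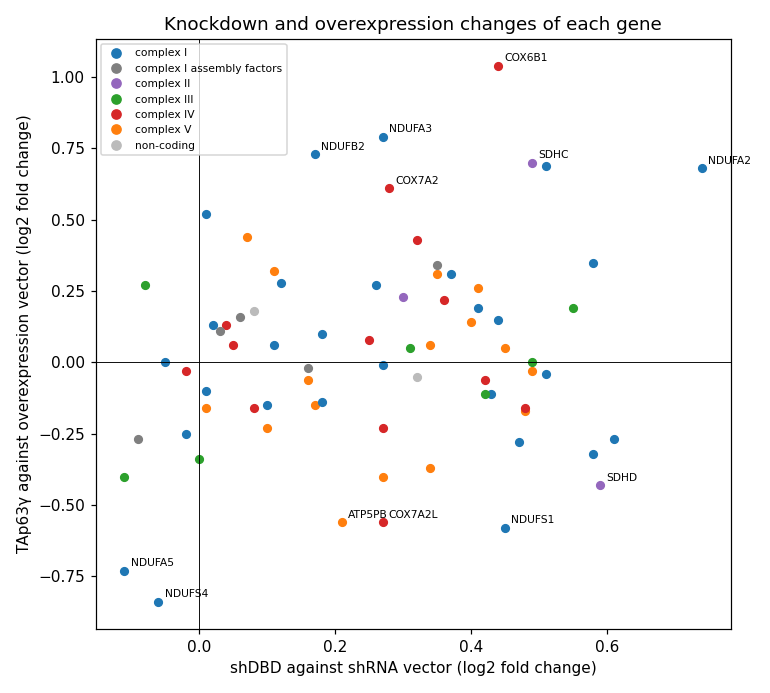
Log2 fold change with TAp63γ against its vector (vertical axis) plotted against the change with shDBD against its vector (horizontal axis) for each of the 74 genes, coloured by complex. The points lie mostly to the right of 0 (66 genes) and on both sides of 0 vertically (38 above, 36 below); COX6B1 and NDUFA2 are high on both axes and NDUFS4 is lowest on the vertical axis.

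Other mitochondrial gene lists were read the same way. Their counts stand against shares of all genes called higher and lower of 11.1% and 10.2% with shDBD, 12.3% and 16.6% with ΔNp63α, and 20.5% and 22.8% with TAp63γ, and against 2.29% in either direction with shTA. Of 18 measured regulators of mitochondrial biogenesis, 0 rose and 3 fell with shDBD, at a median change of 0.07. One of the 3 is NRF1, which encodes the factor of the promoter motif above and fell by 0.47 (SE 0.12; adjusted p = 0.0116). With ΔNp63α 1 of the 18 rose and 8 fell, and NRF1 fell again, by 0.42 (SE 0.1). With TAp63γ 3 rose and 8 fell, among them TFAM, which packages and transcribes mitochondrial DNA (-0.83 ± 0.18), and TFB2M, a mitochondrial transcription factor (-0.78 ± 0.089). GABPA, the DNA-binding subunit of GABP, rose by 0.3 ± 0.11 with ΔNp63α, fell by 0.48 with TAp63γ (SE 0.11) and had a change of 0.28 ± 0.13 with shDBD without a call. With shTA none of the 18 were called.

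Of 21 other assembly factors and electron carriers, 7 rose and 1 fell with shDBD (median 0.21), 1 rose with shTA, 1 rose and 8 fell with ΔNp63α (median -0.24) and 3 rose and 10 fell with TAp63γ (median -0.21). COX15, needed for heme A of complex IV, rose by 0.88 ± 0.14 with shDBD and fell by 0.99 with ΔNp63α and 0.89 with TAp63γ (SE 0.11 each). SURF1, another complex IV assembly factor, rose by 0.77 ± 0.12 with shDBD and fell by 0.69 with ΔNp63α. SCO2, a copper chaperone of complex IV, rose with shDBD, ΔNp63α and TAp63γ, by 0.35 ± 0.1, 0.49 ± 0.084 and 0.51 ± 0.084. LRPPRC, which stabilises mitochondrial messenger RNA, rose with shTA by 0.39 ± 0.087 and fell by 0.57 with ΔNp63α and 1.11 with TAp63γ (SE 0.071 each). Among 15 citric acid cycle and pyruvate dehydrogenase genes, 6 rose and 0 fell with shDBD (median 0.32), 1 rose and 5 fell with ΔNp63α, and 2 rose and 7 fell with TAp63γ.

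Of 51 mitochondrial ribosomal protein genes, 5 rose and 5 fell with shDBD (median 0.09), close to the shares of all genes, and 0 were called with shTA. In the overexpression arm 2 rose and 26 fell with ΔNp63α (median -0.24), and 8 rose and 16 fell with TAp63γ (median -0.12). MRPS10 fell by 0.68 and 1.0 (SE 0.077 each), and MRPL49 rose with TAp63γ by 1.37 ± 0.12. Of the 8 measured carriers and channels of the mitochondrial membranes none were called with either hairpin, 4 fell with ΔNp63α and 2 rose with TAp63γ. These counts carry no test against the oxidative phosphorylation genes. The medians of the ribosomal list and of the biogenesis list kept their sign under quantile normalization and cyclic loess in all 4 comparisons with a vector.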

How the data were processed

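RNA from 15 MCF-10A cultures was measured on Affymetrix arrays of 22277 probe sets. The deposited log2 values were made with RMA by the authors, per the submitters' processing notes, and were used as deposited; RMA corrects background, quantile-normalizes and summarizes probes, so values are relative between arrays. No array was left out. The 19064 probe sets with 1 annotated symbol were reduced to the probe set with the highest mean per gene (11963 genes; symbols from the platform annotation, those of all 74 members matching RefSeq). A mean per group was fitted over all 15 arrays with limma 3.58.1 in R 4.3.3 (lmFit, eBayes with trend), so both arms share 1 estimate of the spread, and p-values were adjusted by Benjamini-Hochberg over all genes. The number of arrays limits the precision. The fit was run on simulated data with known changes, which checks the code and not the results given here. The named genes are, per comparison and class, up to 4 called genes in each direction with the largest change and the largest change not called, with complex II, CYC1 and isoform pairs always; genes of the grouped sentences beyond these were named after their values were seen. The members and lists were chosen with earlier results of these data known. Replicate numbers were not taken as pairs: same-numbered arrays correlated between -0.628 and 0.476 in their deviations from the group means.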

Additional observations from a re-analysis of the deposited data

How the results depend on the processing

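The fits were repeated with quantile normalization, cyclic loess within each arm, low genes left out, the mean of a gene's probe sets, no variance trend, each arm alone, the replicate number as a block, and each array left out. No called change of a named gene reversed. Of the rechecked values of named genes, 6908 stayed on the same side of the threshold, 245 lost a call and 107 gained one. Most rechecks were fits that left out 1 array, many of them an array outside the comparison, which changes only the spread. Values never called count as unchanged, so the first total is no measure of how stable the calls are. Leaving out 1 array gave 17 to 38 calls with shDBD, 0 to 3 with shTA, 19 to 26 with ΔNp63α, 28 to 44 with TAp63γ, 5 to 22 between the hairpins and 13 to 24 between the isoforms. With shTA, 1 gene was called with low genes left out and 8 with each arm alone. Between the hairpins each arm alone gave 30 calls and the replicate block 10, and between the isoforms either setting gave 15. The block kept the other counts within 1.5 times. The cause of these moves was not tested. Detection calls were not analysed here. Over all 15 arrays 0 of the 74 genes had a mean level below the 20th percentile of the arrays, 5.22. NDUFAF5 lay below it on the overexpression arrays (4.61 to 4.79) and NDUFAF7 on the knockdown arrays (4.65 to 4.83). Their lack of a call in that arm says little.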
